A study of Rattus norvegicus with 24 samples.

Results

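The potassium channel genes described here are the 61 genes, of 12187 in the deposited expression table, whose symbols begin with Kcn, with Kcnj10 left aside. They were chosen by symbol alone and comprise 25 pore-forming subunits of voltage-gated channels, 11 inward rectifier subunits, 9 two-pore subunits, 6 calcium-activated subunits (counting the related sodium-activated Kcnt1) and 10 auxiliary proteins that do not form a pore. RefSeq lists 94 protein-coding genes of this naming in the rat, of which the other 33 were not analysed here. Expression was measured by RNA-seq in 6 libraries from Sprague-Dawley rats, 2 per group: neural stem cells labelled D0, cells differentiated from them (VC-), and cells differentiated with vitamin C (VC+). In the differentiated cells, replicate 1 carries a D4 label and replicate 2 a D5 label. The labels do not state that the replicates came from different cultures or rats, and the p-values below therefore reflect no more than library-to-library spread, which may be technical. The other 18 samples of the series were not analysed here.

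Potassium channels let potassium leave or enter the cell along its gradient and so set the resting potential and the shape of action potentials. Voltage-gated subunits open on depolarisation, inward rectifiers pass current near rest, two-pore subunits carry a steady leak, and calcium-activated subunits open when intracellular calcium rises. Auxiliary proteins change the trafficking and gating of the pore. Neural progenitors and glia are known to rely on leak and inward rectifier currents, while neurons and oligodendrocyte precursors add voltage-gated ones.

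The 2 replicate sets differed in the levels of other cell types' markers. Levels are in CPM, a read count scaled for depth, which the authors obtained by scaling each library to a common size. The 14 markers of microglia and macrophages summed to between 5.45 and 6.05 CPM in the replicate 1 libraries and to between 399 and 954 CPM in replicate 2, with Itgam at 0 in all 3 replicate 1 libraries and 9, 3 and 7 of the 14 at 0 in D0, VC- and VC+. The 12 fibroblast, pericyte and meninges markers summed to between 385 and 445 CPM in replicate 1 and to between 4289 and 10390 CPM in replicate 2. The 16 oligodendrocyte lineage markers summed to 2347 and 841 CPM in D0 (replicates 1 and 2), 13820 and 1247 CPM in VC- and 10548 and 1003 CPM in VC+. The 12 astrocyte markers summed to 1450 and 2416, 1845 and 2568, and 5519 and 6966 CPM in these groups. Neuron markers were present, with Tubb3 between 10.5 and 91.3 CPM and Rbfox3 between 3.15 and 10.6 CPM, and the stem cell marker Sox2 stood between 332 and 455 CPM in every group. In such bulk samples, fewer cells of a type and less RNA per cell cannot be told apart.

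In the plot of members by library, most channel genes were at low levels. Between 17 and 28 of the 61 members reached 5 CPM in a library, and in the replicate 1 libraries between 12 and 16 members rested on 3 reads or fewer, against 1 or 2 members in replicate 2. Depth was 4811094 to 6641721 reads over the listed genes in replicate 1 and 10299321 to 13184601 in replicate 2. A count of 0 allows up to 3 reads, which is 0.378 CPM in the shallowest library and 0.140 CPM in the deepest, for counting error only. CPM is not divided by gene length, so levels are compared between libraries and not between genes.

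**Figure D1:**
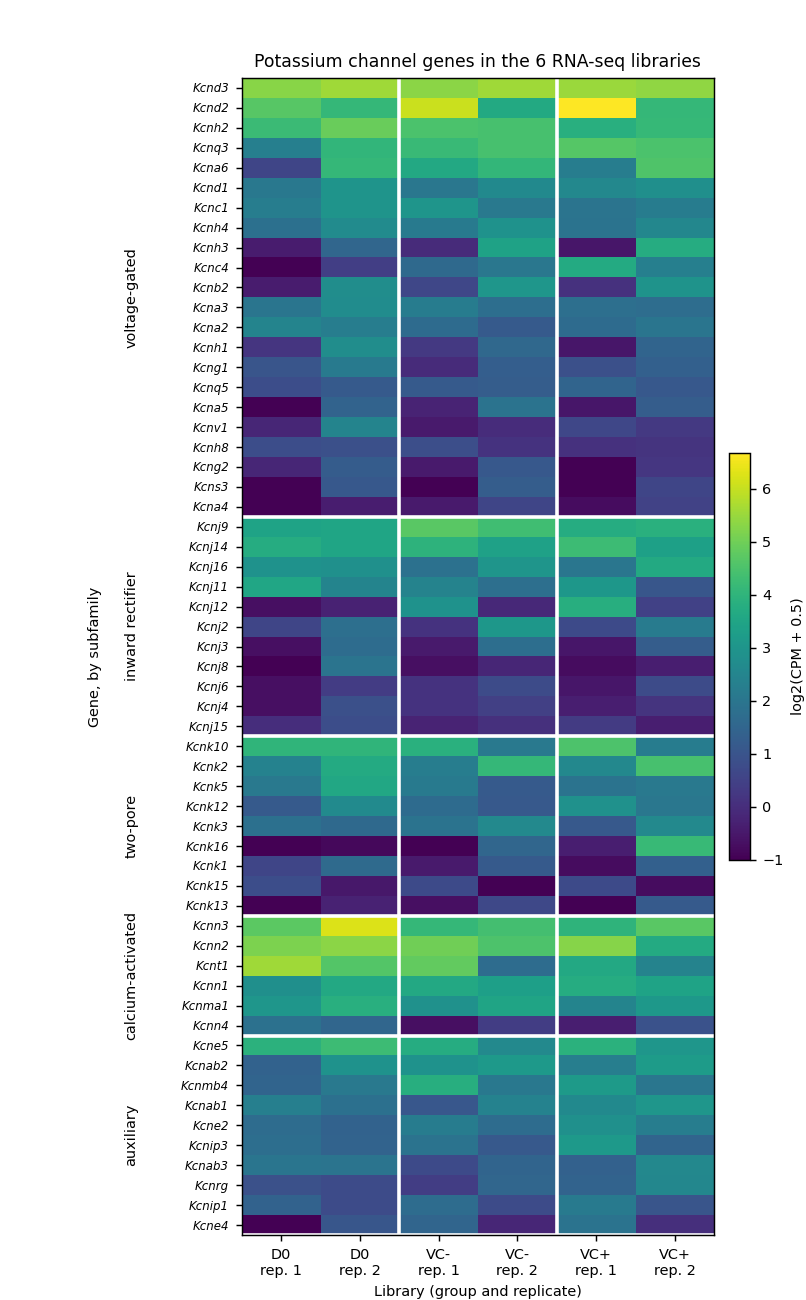
Expression of 58 potassium channel genes as log2(CPM + 0.5) in each of the 6 libraries (columns, 2 replicates per group), with genes in rows by subfamily and ordered by mean CPM. Kcnd3 (39.0 to 47.5 CPM) keeps nearly the same shade in all 6 libraries, while Kcnb2, Kcnh3 and Kcnj3 are lighter in replicate 2 than in replicate 1 in all 3 groups.

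Summed over its members, the calcium-activated subfamily separated stem cells from differentiated cells. Its sum was 126 and 168 CPM in D0 (replicate 1, then replicate 2), 94.99 and 66.3 CPM in VC- and 83.8 and 63.0 CPM in VC+, so every differentiated library lay below both stem cell libraries. A different gene had the largest fall in each replicate. In replicate 1 it was the sodium-activated Kcnt1, at 47.0 CPM in D0, 28.0 CPM in VC- and 11.9 CPM in VC+. In replicate 2 it was Kcnn3, at 76.9, 20.3 and 25.8 CPM. Not every member fell, and Kcnn2 went from 34.8 CPM in D0 to 38.3 CPM in VC+ of replicate 1. The voltage-gated sum was 195 and 252, 290 and 244, and 296 and 244 CPM, with the VC+ libraries inside or near the range of VC-. The inward rectifier sum was 43.3 and 46.3, 58.1 and 53.6, and 58.9 and 46.9 CPM. Both differentiated groups lay above D0, VC+ in replicate 2 only narrowly. Single genes made up most of this rise. Kcnj9 stood at 10.3 and 10.97 CPM in D0 and at 25.7 and 19.2 CPM in VC-. Kcnj12 stood at 0.126 CPM in D0 and at 13.4 CPM in VC+ of replicate 1. Kcnj11 went the other way, at 11.1 and 4.99 CPM in D0 and at 4.88 and 2.96 CPM in VC-. The 2-pore sum was 31.4 and 51.2, 29.8 and 34.9, and 41.3 and 59.7 CPM, and both VC+ libraries lay above both VC- libraries. A different gene had the largest part in each replicate, Kcnk10 in replicate 1 (14.1 to 22.6 CPM) and Kcnk16 in replicate 2 (2.42 to 17.6 CPM). The auxiliary sum was 36.1 and 44.1, 49.5 and 33.1, and 59.4 and 47.3 CPM, so both VC+ libraries lay above both D0 libraries, while VC- overlapped both groups.

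The series assayed DNA methylation as well as expression, and cytosines followed by guanine (CpG) are where that mark sits. Upstream sequences of 250 bases before the gene start were found by symbol for 39 of the 61 members in RefSeq (build GRCr8). Of these, 26 (66.7%) held 10 or more CpG, against 74.3% of 9212 genes of the expression table and 38.4% of all 27457 promoters of the same length. The count was 4 of 4 for calcium-activated, 12 of 15 for voltage-gated, 4 of 8 for inward rectifier, 2 of 4 for two-pore and 4 of 8 for auxiliary genes. The sequences of 3 members that the results below turn on are shown 5′ to 3′ with each CpG in capitals: Kcnc4 (chr2:197788434-197788683, minus strand, 13 CpG), Kcnn3 (chr2:177234090-177234339, plus strand, 11 CpG) and Kcnk16 (chr15:4091441-4091690, plus strand, 7 CpG). No methylation values were used here, so these are the letters alone.
Kcnc4: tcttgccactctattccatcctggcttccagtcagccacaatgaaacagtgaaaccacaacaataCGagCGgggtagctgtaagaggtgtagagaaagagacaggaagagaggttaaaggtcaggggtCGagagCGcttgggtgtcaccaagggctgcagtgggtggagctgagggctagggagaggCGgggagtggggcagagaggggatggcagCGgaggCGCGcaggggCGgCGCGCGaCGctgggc
Kcnn3: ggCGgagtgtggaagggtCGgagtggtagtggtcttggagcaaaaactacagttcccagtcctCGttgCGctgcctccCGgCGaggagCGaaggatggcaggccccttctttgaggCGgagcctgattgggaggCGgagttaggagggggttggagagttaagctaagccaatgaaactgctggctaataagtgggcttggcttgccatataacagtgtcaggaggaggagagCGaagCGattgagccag
Kcnk16: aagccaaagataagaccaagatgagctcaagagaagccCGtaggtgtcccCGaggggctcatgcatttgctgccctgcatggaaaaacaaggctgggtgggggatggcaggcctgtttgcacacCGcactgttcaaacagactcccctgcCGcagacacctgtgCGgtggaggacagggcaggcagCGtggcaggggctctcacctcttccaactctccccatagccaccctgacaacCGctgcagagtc

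The first comparison asked which channel genes differ between cells differentiated with and without vitamin C. No member passed the limma test. The test took genes reaching 1 CPM in 2 or more libraries, among them 57 members (Kcna4, Kcnj4, Kcnj8 and Kcnj15 fell below). Of these 57, 0 passed at a Benjamini-Hochberg adjusted p under 0.05, against 0% of the 11823 genes tested. At an unadjusted p under 0.05 there were 0 members in limma (0.524% of all genes), 0 in edgeR (0.558%) and 1 in DESeq2 (1.16%). Adjusted, edgeR called 0 members (0% of all genes) and DESeq2 called 0 (0.0507%). With the replicates paired, limma, edgeR and DESeq2 still called 0 members, against 0%, 0% and 0.271% of all genes, and put 1, 2 and 1 members at an unadjusted p under 0.05, against 3.42%, 3.68% and 3.08%. The groups did not overlap for 9 members (15.8%), 7 higher and 2 lower with vitamin C, against 16.0% of all genes (8.15% higher and 7.82% lower). Because the replicate sets lay far apart, the ratio of each VC+ library to the VC- library of the same replicate was also taken from the reads, with an exact 95% binomial interval that covers counting error and compares 2 libraries, not conditions. Both intervals lay above 1 for 5 members (9.57% of all genes) and below 1 for 2 (7.98%), in all 12.3% of members against 17.6% of all genes. They lay on opposite sides of 1 for 4 members, against 8.34% of all genes. Summed astrocyte markers, given above, were also higher in both VC+ libraries, with 7 of 12 not overlapping VC- and none at 0. Their part in the differences below was not tested.

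Among voltage-gated genes, Kcnd2 was higher and Kcnh2 lower with vitamin C in both replicates. Kcnd2, a subunit of the fast-inactivating Kv4 channels, stood at 65.2 and 11.98 CPM in VC- and at 101 and 16.6 CPM in VC+. Its ratios were 1.55 (interval 1.40 to 1.72) in replicate 1 and 1.38 (1.17 to 1.64) in replicate 2, while the groups overlapped and the limma difference was 0.54 on the log2 scale with a standard error (SE) of 1.14. Kcnh2, the ERG channel that helps repolarise excitable cells, stood at 21.9 and 21.2 CPM in VC- and at 13.9 and 17.2 CPM in VC+. Both VC+ libraries lay below both VC- libraries, with ratios of 0.635 (0.508 to 0.793) and 0.814 (0.704 to 0.941) and a log2 difference of -0.46 (SE 0.34). Kcnc4, a Kv3 subunit, went from 2.56 to 12.2 CPM in replicate 1, a ratio of 4.79 (3.03 to 7.91), and from 3.65 to 4.45 CPM in replicate 2, where the ratio of 1.22 had an interval reaching below 1 (0.882 to 1.69). Kcnd3, the other abundant Kv4 subunit of the table, had overlapping groups, at 39.4 and 47.5 CPM in VC- against 45.4 and 41.3 CPM in VC+. Kcnq3, a subunit of the M-current channels that damp repetitive firing, stood at 17.9 and 21.1 CPM against 24.6 and 22.1 CPM. Over the 24 voltage-gated members tested, the median difference was -0.25, with 7 higher and 9 lower in both replicates, beside a median of 0.02 over all genes tested. The median was -0.29 in replicate 1 and -0.01 in replicate 2. Neuron markers had a median of -0.29, with 9 of 14 lower and 1 higher in both replicates, 3 of them (Nefl, Nefm and Ina) with groups apart, and none at 0. They summed to 756 and 557 CPM in VC- and to 587 and 540 CPM in VC+, and their part in the channel differences was not tested.

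Among inward rectifiers, Kcnj9 had the smallest p on the lower side. It encodes a subunit of the G protein-gated channels that neurotransmitters open. Its level was 25.7 and 19.2 CPM in VC- and 12.9 and 14.1 CPM in VC+, so the groups did not overlap. The log2 difference was -0.70 (SE 0.30, adjusted p = 1.00 in limma), with ratios of 0.503 (0.403 to 0.626) and 0.735 (0.629 to 0.859). Kcnj9 overlaps Igsf8 on the opposite strand in GRCr8, and whether counting used strand is not given in the sources used here, so reads of the pair may not have been told apart. Igsf8 stood at 170 and 120 CPM in VC- and at 72.2 and 115 CPM in VC+, which moved with Kcnj9 in replicate 1. Kcnj16, which in glia assembles with the subunit encoded by Kcnj10, stood at 3.14 and 7.41 CPM against 3.54 and 12.2 CPM. Kcnj14, a Kir2 subunit, stood at 14.998 and 9.89 CPM against 18.6 and 9.83 CPM. The median over 8 inward rectifiers tested was -0.09.

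Of the 9 two-pore genes, 4 were higher and 0 lower with vitamin C in both replicates, beside 30.0% and 26.4% of all genes. Their median was 0.32, with -0.01 in replicate 1 and 0.32 in replicate 2. Kcnk12, which encodes a THIK leak subunit, stood at 2.67 and 1.72 CPM in VC- and at 6.79 and 3.61 CPM in VC+, with no overlap. Its ratios were 2.54 (1.57 to 4.26) and 2.097 (1.37 to 3.27), and the log2 difference was 1.04 (SE 0.71). Kcnk16, an alkaline-activated leak subunit known from pancreatic islets, was near 0 except in replicate 2 of the differentiated cells, with 2.42 CPM in VC- and 17.6 CPM in VC+. That made a ratio of 7.26 (5.32 to 10.1) in replicate 2, while replicate 1 held 0 reads in VC- and 3 in VC+ and allows no ratio. Kcnk16 overlaps Nudt13 on the opposite strand in GRCr8, and Nudt13 stood at 9.07 and 6.07 CPM in VC- and 8.23 and 8.99 CPM in VC+. Of the mechanically gated TREK subunits, Kcnk2 stood at 4.30 and 16.8 CPM against 5.45 and 21.1 CPM, and Kcnk10 at 14.1 and 3.76 CPM against 22.6 and 4.17 CPM.

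Calcium-activated genes went both ways between the vitamin C groups, with a median of -0.06 over 6 members, against 0.02 in replicate 1 and 0.23 in replicate 2 taken alone. None of the 6 had groups apart, and none had both ratio intervals on 1 side of 1. For 2 of the 6 the intervals lay on opposite sides, with ratios of 0.423 and 1.76 for Kcnt1 and of 1.21 and 0.554 for Kcnn2 in replicates 1 and 2. Kcnn3, a small-conductance subunit, stood at 16.6 and 20.3 CPM in VC- and at 15.5 and 25.8 CPM in VC+. Kcnma1, the large-conductance BK pore, stood at 6.86 and 10.5 CPM against 4.98 and 8.05 CPM.

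Of the 10 auxiliary genes, 8 were higher and 1 lower with vitamin C in both replicates, beside 30.0% of all genes tested that were higher and 26.4% that were lower. Their median was 0.47, with 0.52 in replicate 1 and 0.38 in replicate 2. Kcnab1, a beta subunit of Kv1 channels, stood at 1.63 and 4.78 CPM in VC- and at 5.74 and 7.73 CPM in VC+. Its groups did not overlap, its ratios were 3.53 (1.95 to 6.83) and 1.62 (1.24 to 2.12), and its log2 difference was 1.10 (SE 0.62). Kcne2, a single-pass partner of voltage-gated pores, stood at 4.19 and 2.74 CPM against 6.70 and 4.26 CPM, again with no overlap and with ratios of 1.60 (1.06 to 2.46) and 1.55 (1.09 to 2.24). Kcnrg, a regulator that hinders the assembly of Kv1 channels, stood at 0.814 and 2.36 CPM against 2.20 and 5.34 CPM, with ratios of 2.70 (1.12 to 7.46) and 2.26 (1.58 to 3.27). Kcne5 stood at 12.9 and 5.64 CPM against 14.4 and 7.73 CPM. The exception was Kcnmb4, a BK beta subunit, at 13.5 and 3.71 CPM against 8.52 and 3.56 CPM, and Kcnab2 was higher in replicate 2 alone (6.98 and 8.33 CPM against 4.31 and 8.80 CPM). Kcnab2 overlaps Nphp4 on the opposite strand in GRCr8, and reads of this pair too may not have been told apart. Nphp4 stood at 28.0 and 67.8 CPM in VC- and at 27.7 and 77.3 CPM in VC+. The difference between subfamilies was not tested.

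**Figure D2:**
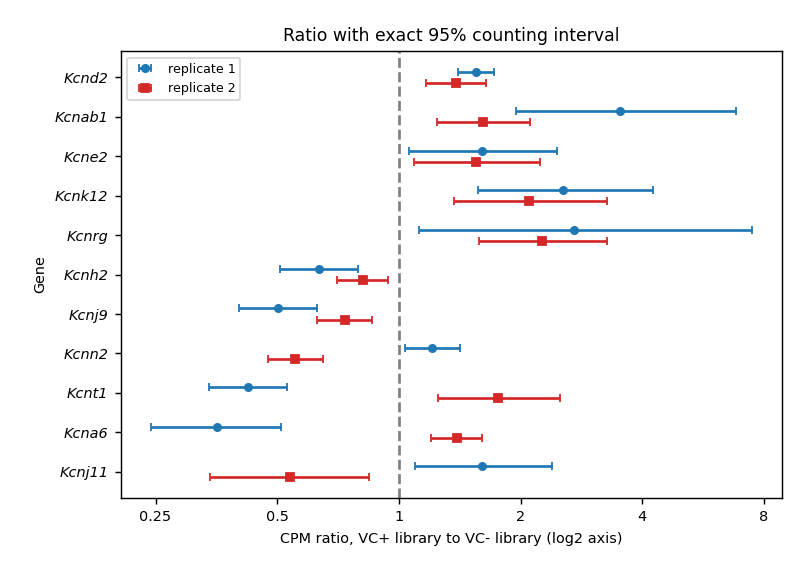
CPM ratio of the VC+ library to the VC- library (log2 axis) in replicate 1 (circles) and replicate 2 (squares) for the 11 members whose 2 exact 95% counting intervals (bars) both lay away from 1. Kcnd2, Kcnab1, Kcne2, Kcnk12 and Kcnrg lie above 1 in both replicates, Kcnh2 and Kcnj9 below 1 in both, and Kcnn2, Kcnt1, Kcna6 and Kcnj11 on opposite sides.

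The second comparison set the cells differentiated without vitamin C against the stem cells. The calcium-activated genes stood lower, with a median log2 difference of -0.87 over 6 members against 0.01 over all genes tested, and 5 of 6 were lower in both replicates (29.5% of all genes were), while 0 were higher (28.6%). Limma called 0 of 57 members against 0% of all genes, with 2 at an unadjusted p under 0.05, Kcnj9 and Kcnc4. The share of all genes at that level was 3.23%. EdgeR called 0 members (0% of all genes) and DESeq2 called 0 (0.558%), with 1 and 3 members at an unadjusted p under 0.05 against 3.25% and 5.85% of all genes. Groups did not overlap for 14 members (24.6%), 6 higher and 8 lower, against 26.9% of all genes (13.8% higher and 13.2% lower), so the members' share was near that of genes at large. Proliferation markers were lower in these cells, 10 of 12 with groups apart and sums of 1167 and 851 CPM in D0 against 573 and 425 CPM in VC-, and 12 of 16 oligodendrocyte markers were higher in both replicates. Their part in the channel differences was not tested.

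Kcnn3 stood at 26.4 and 76.9 CPM in D0 and at 16.6 and 20.3 CPM in VC-, with both differentiated libraries below both stem cell libraries and a log2 difference of -1.27 (SE 0.58, adjusted p = 1.00 in limma). That difference was -2.04 without replicate 1 of D0 and -0.51 without replicate 2 of D0. Kcnn4, the intermediate-conductance subunit known from blood cells and proliferating cells and chosen after its values were seen, stood at 3.15 and 2.37 CPM against 0.116 and 0.806 CPM. Kcnt1, the sodium-activated subunit, also chosen afterwards, stood at 47.0 and 23.8 CPM against 28.0 and 2.79 CPM, with groups that overlapped and a difference of -1.81 (SE 1.12). Kcnn2 stood at 34.8 and 39.6 CPM against 31.6 and 22.3 CPM. Kcnn1 was the member of the subfamily with a positive difference, at 6.56 and 11.9 CPM against 11.7 and 9.56 CPM.

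On the higher side, Kcnj9 stood at 10.3 and 10.97 CPM in D0 and at 25.7 and 19.2 CPM in VC-. Its log2 difference was 1.03 (SE 0.30), with an unadjusted p of 0.0188 and an adjusted p of 1.00 in limma, and the overlapping Igsf8 stood at 76.4 and 150 CPM in D0. Kcnq3 stood at 4.41 and 16.2 CPM against 17.9 and 21.1 CPM, a difference of 1.14 (SE 0.62) that was 0.26 without replicate 1 of D0 and 2.02 without replicate 2 of D0. Kcnc4 stood at 0 and 0.854 CPM in D0 and at 2.56 and 3.65 CPM in VC-. Replicate 1 held 0 reads in D0, and the exact 95% counting interval of its ratio began at 5.05. In replicate 2 the ratio was 4.28 (2.34 to 8.44). Kcnab2, a beta subunit, stood at 2.14 and 6.96 CPM against 6.98 and 8.33 CPM, and the overlapping Nphp4 stood at 35.2 and 37.6 CPM in D0. Lower in VC- without overlap, beside lower-level genes, were the KATP pore gene Kcnj11, at 11.1 and 4.99 CPM against 4.88 and 2.96 CPM, Kcnk10, at 15.8 and 15.7 CPM against 14.1 and 3.76 CPM, and Kcne5, at 14.6 and 18.7 CPM against 12.9 and 5.64 CPM. The last 2 owed their difference mainly to replicate 2. Kcnd3, Kcnj14 and Kcnk2 had differences between 0.02 and 0.15, well inside their SE of 0.23 to 0.97.

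The third comparison set the cells differentiated with vitamin C against the same stem cell libraries, so its values are not independent of those above. The calcium-activated median was -0.95, with 4 of 6 lower and 0 higher in both replicates, beside 29.0% and 28.6% of all genes. Groups were apart on the lower side for 3 of the 6, against 13.2% of all genes. Proliferation markers were lower in VC+ with groups apart for 9 of 12 (median -0.88, sums of 591 and 549 CPM), and astrocyte markers higher with groups apart for 6 of 12 (median 1.04). Oligodendrocyte markers were higher with groups apart for 11 of 16 (median 3.119). Their part in the channel differences was not tested. Limma called 0 members against 0% of all genes, with Kcnc4 alone at an unadjusted p under 0.05, against 4.29% of all genes. EdgeR called 0 members (0% of all genes) and DESeq2 called 0 (1.14%), with 1 and 3 members at an unadjusted p under 0.05 against 4.27% and 8.14% of all genes. Groups did not overlap for 18 members (31.6%), 8 higher and 10 lower, against 27.4% of all genes (14.2% higher and 13.2% lower). Kcnc4 had the smallest p, at 0 and 0.854 CPM in D0 and 12.2 and 4.45 CPM in VC+, a fitted difference of 3.27 (SE 0.80, unadjusted p = 0.00923, adjusted p = 1.00 in limma) that depends on the pseudocount. In replicate 1 the exact 95% counting interval of its ratio began at 25.9, and in replicate 2 the ratio was 5.21 (2.90 to 10.1). Kcnq3 stood at 24.6 and 22.1 CPM in VC+, above both stem cell libraries, with a difference of 1.39 (SE 0.62) that was 0.51 without replicate 1 of D0 and 2.28 without replicate 2 of D0. Kcnt1 stood at 11.9 and 4.92 CPM in VC+, below both stem cell libraries, with a difference of -2.05 (SE 1.12), and Kcnn3 at 15.5 and 25.8 CPM, with a difference of -1.15 (SE 0.58). The Kcnn3 difference was -1.92 without replicate 1 of D0 and -0.39 without replicate 2 of D0.

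Kcnk16 and Kcnj12 separated VC+ from D0 through 1 replicate each. Kcnk16 had 0 reads in D0 of replicate 1 and 1 read (0.0657 CPM) in replicate 2, and in replicate 2 of VC+ the ratio was 267 with an interval of 47.7 to 10584. Kcnj12, a Kir2 subunit, stood at 0.126 and 0.328 CPM in D0, 6.98 and 0.430 CPM in VC- and 13.4 and 0.890 CPM in VC+. Its replicate 1 libraries of differentiated cells stood apart from the rest, and these are also the libraries in which oligodendrocyte markers summed highest, the part of which was not tested. Its ratio of VC+ to D0 in replicate 2 was 2.71 (0.978 to 9.28). Other members with groups apart included Kcnab1, Kcne2 and Kcnj9 on the higher side and, on the lower side, Kcnh2 (18.03 and 30.0 CPM in D0), the acid-sensitive leak subunit Kcnk5 (3.78 and 11.6 CPM against 3.25 and 3.75 CPM), Kcne5, and the Kv3 subunit Kcnc1 (4.29 and 7.36 CPM against 3.35 and 4.17 CPM). The auxiliary median was 0.73, with 6 of 10 higher and 1 lower in both replicates, beside a median of 0.01 over all genes tested.

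**Figure D3:**
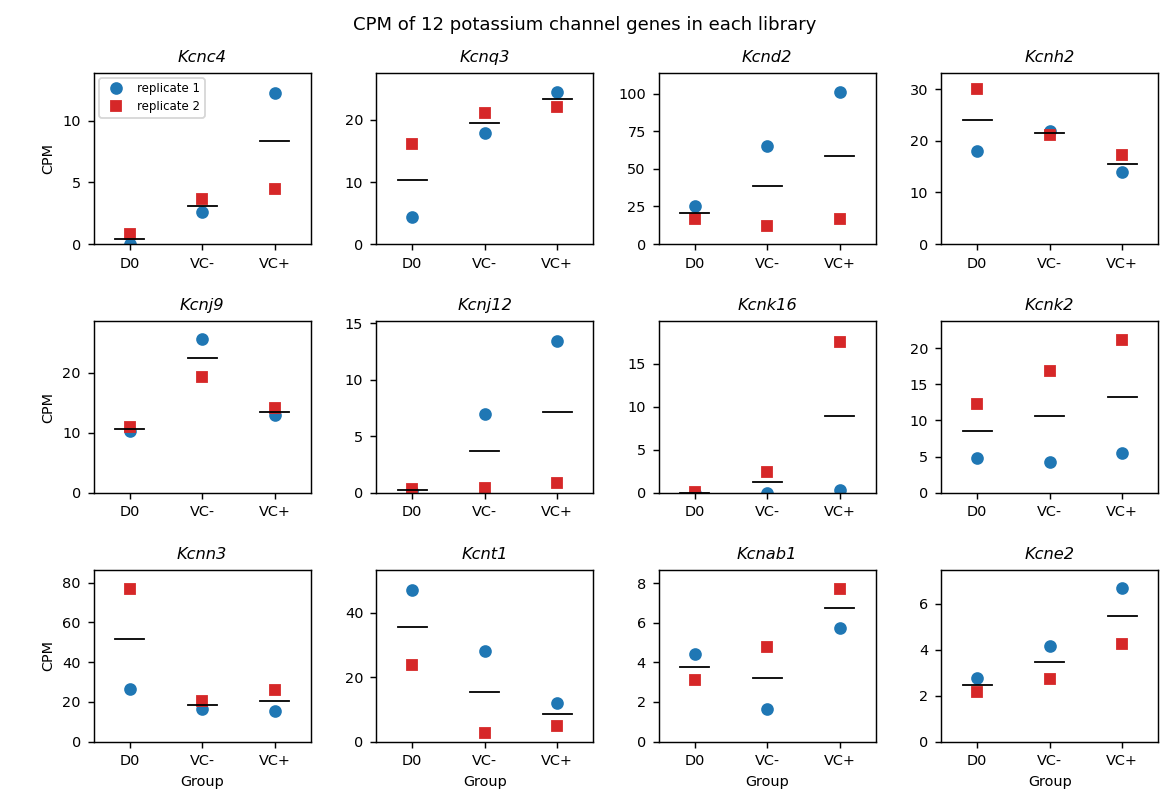
CPM of 12 potassium channel genes in each library (circles replicate 1, squares replicate 2, black line the mean of 2 libraries) in D0, VC- and VC+, each panel on its own axis from 0. Kcnn3 and Kcnt1 are lower in both VC+ libraries than in both D0 libraries, Kcnc4 and Kcnq3 are higher, and Kcnj12 and Kcnk16 are high in 1 replicate only.

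**Figure D4:**
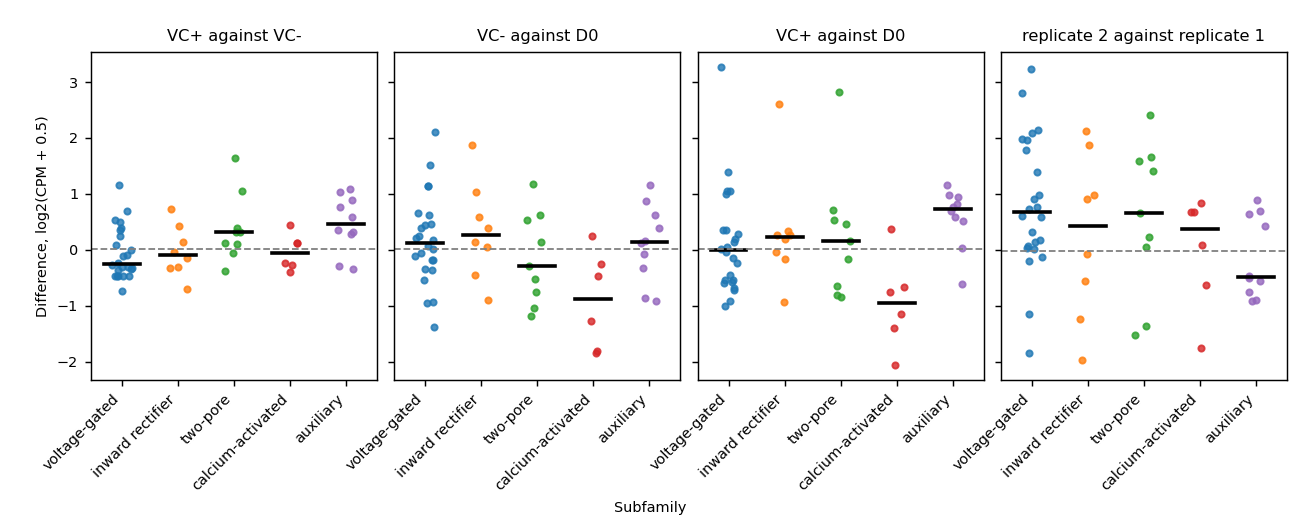
Difference on the log2(CPM + 0.5) scale for every tested member (points) by subfamily in the 3 group comparisons and between replicates, with the subfamily median (black line) and the median of all genes tested (dashed). The calcium-activated medians of -0.87 and -0.95 lie below the dashed line in both comparisons with stem cells, and the auxiliary medians of 0.47 and 0.73 lie above it in VC+ against VC- and in VC+ against D0.

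Between the replicate sets, 15 of 57 members (26.3%) passed the limma test, against 25.1% of all genes, 12 higher in replicate 2 (17.4% of all genes were) and 3 lower (7.70%). By subfamily, 10 of 24 voltage-gated, 2 of 8 inward rectifier, 3 of 9 two-pore, 0 of 6 calcium-activated and 0 of 10 auxiliary genes passed. In D0, VC- and VC+, replicate 1 gave 0.252, 1.05 and 0.574 CPM for Kcnb2, a Kv2 subunit gene, and replicate 2 gave 6.31, 7.68 and 7.21 CPM. Its log2 difference was 2.81 (SE 0.31, adjusted p = 0.00688 in limma). Kcnh3 stood at 0.252, 0.465 and 0.191 CPM against 2.37, 10.3 and 12.9 CPM, and Kcnj3, a G protein-gated inward rectifier subunit, at 0.126, 0.233 and 0.191 CPM against 2.76, 2.90 and 1.87 CPM. Kcnh3 overlaps Mcrs1 in GRCr8, which stood at 85.3, 80.8 and 74.0 CPM against 48.1, 52.4 and 59.8 CPM. Kcnk2 was higher in replicate 2 by 1.66 (SE 0.24) and the Kv1 subunit gene Kcna5 by 2.14 (SE 0.33) on the log2 scale. Further members that passed on this side included the Kir2 subunit gene Kcnj2, the leak subunit gene Kcnk1 and the voltage-gated Kcnh1, Kcng2 and Kcns3, with differences from 1.40 to 1.99.

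Those lower in replicate 2 included Kcnd2 and Kcnk15, with adjusted p of 0.0401 and 0.0331 in limma. Kcnd2 stood at 24.97, 65.2 and 101 CPM against 16.8, 11.98 and 16.6 CPM, so its gap between replicates was widest in the differentiated cells. Kcnk15 stood at 1.26, 1.16 and 1.15 CPM against 0.197, 0 and 0.0936 CPM. It overlaps Rims4 in GRCr8, which stood at 5.30, 3.49 and 4.21 CPM against 1.12, 0.806 and 0.843 CPM. Kcnt1, Kcnj11 and Kcnip1 were the next on the lower side and did not pass (adjusted p of 0.0536, 0.0598 and 0.0785 in limma). Of the marker lists, 14 of 14 microglia and 9 of 12 fibroblast markers passed as higher in replicate 2, and 11 of 16 oligodendrocyte markers as lower. Their part in the channel differences was not tested. The count of members passing rests on which libraries enter, and so does the count over all genes.

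The 2 KATP channel pores were read beside their regulatory subunits, a view chosen after the values were seen. Kcnj11 stood at 11.1 and 4.99 CPM in D0, 4.88 and 2.96 CPM in VC- and 7.85 and 1.59 CPM in VC+, and its partner Abcc8 at 9.46 and 4.66, 2.67 and 2.15, and 6.70 and 6.13 CPM. Both were lower in VC- than in D0 without overlap, and in replicate 2 of VC+ they parted. Kcnj8, the KATP pore known from pericytes and vascular muscle, was below the test's filter, at 0 and 3.35 CPM in D0, 0.116 and 0.376 CPM in VC- and 0.0957 and 0.281 CPM in VC+. Its partner Abcc9 stood at 0.504 and 4.20, 0.116 and 0.376, and 0 and 0.468 CPM, so both were at 1 CPM or more only in replicate 2 of the stem cells. That library also had the highest sum of fibroblast, pericyte and meninges markers, the part of which was not tested.

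Partner proteins and the pumps and cotransporters that maintain the potassium gradient were read from 2 further lists. Of 19 channel partners and anchors tested, 0 passed the limma test in any of the 3 group comparisons, where 0% of all genes passed. In the comparison of replicates 4 passed, all higher in replicate 2, where 17.4% of all genes passed as higher. With vitamin C, 13 were higher and 2 lower in both replicates, with a median of 0.31, beside 30.0% and 26.4% of all genes. Dag1, a membrane anchor of astrocyte end-feet, stood at 376 and 454 CPM in VC- and at 519 and 550 CPM in VC+, so both VC+ libraries lay above both VC- libraries. Of 14 pump and cotransporter genes 0 passed in the group comparisons and 7 in the comparison of replicates, all higher in replicate 2, where 17.4% of all genes passed as higher and 7.70% as lower.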

How the data were processed

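Expression values were the CPM deposited by the authors, 1 column per library. Per the submitters' processing notes STAR (2.5.1) and edgeR (3.12.1) are among the tools, and rn5 is the build. Which step each served, the counter, the annotation, strand use and the gene filter are not given in the sources used here. In every library 100% of values were whole multiples of 1 step (relative tolerance 1e-06), so reads were recovered by division. The lowest maximum of any gene over the libraries was 0.967 CPM.

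Tests used limma 3.58.1 in R 4.3.3 (trend, two-sided) on log2(CPM + 0.5), in a single model of the 3 groups (3 residual degrees of freedom) over all 11823 genes tested, Benjamini-Hochberg adjusted. The replicate comparison added a replicate term (2 residual degrees of freedom). Fold changes on this scale understate changes of low genes. With 2 libraries against 2, no exact permutation test was used. VC+ and VC- libraries share a D label within a replicate, and their replicate differences correlated at 0.914 across 11823 genes, so they were also fitted as pairs. Alternatives were pseudocounts of 0.1 and 2, 2 other filters, median-of-ratios rescaling, no trend, count tests on the recovered reads (DESeq2 1.42.0 and edgeR 4.0.16), fits of 2 groups, and leaving out each library. The symbol rule and the lists were set with earlier results of these data known, and members were then taken by symbol alone.

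Named members were those past the test, up to 6 a side of smallest p with groups apart and at least 5 CPM in the higher group, the 2 of highest mean CPM per subfamily, and up to 6 a side with both read ratio intervals on 1 side. Some genes that the rule names are not reported here. Any other member given with values was chosen after its values were seen. Counts were simulated for VC+ against VC- (11817 genes, dispersion 0.05). The levels of the VC- replicates were given to all 3 groups, so the replicates differed alike in each group, which favours the paired fit. There the unpaired limma test found 0 of 64 true 2-fold and 0 of 64 true 8-fold changes, with 0 false calls. The paired one found 14 and 64, with 4 false calls. A count of 0 in the unpaired test therefore does not bound how many genes differ. In the deposited libraries, replicate differences correlated at 0.914 between VC- and VC+, but at 0.730 between D0 and VC- and 0.688 between D0 and VC+. How many true changes the paired test would find in those libraries was not tested, so its count of 0 sets no bound either.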

Additional observations from a re-analysis of the deposited data

Results flagged for a closer look

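For 4 members the VC+ to VC- ratio lay on opposite sides of 1 in the D4 libraries (replicate 1) and the D5 libraries (replicate 2), with both exact 95% counting intervals away from 1. The same held for 8.34% of all genes tested, against 7.02% of members. Kcnn2, a small-conductance calcium-activated subunit, had a ratio of 1.21 in the D4 libraries and 0.554 in the D5 libraries. Kcnt1 had 0.423 and 1.76. Kcna6, a Kv1 subunit, had 0.355 and 1.39. Kcnj11 had 1.61 and 0.539. Each ratio rests on 1 library against 1, and the D label goes with the replicate number, so time and replicate cannot be told apart. The difference between the labels was not tested.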

How the results depend on the processing

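With limma and with edgeR, 0 members passed in the 3 group comparisons under every setting tried, leaving out any 1 library included. DESeq2 on recovered reads called 6 genes for VC+ against VC-, 66 for VC- against D0 and 135 for VC+ against D0, none of them a member, where limma called 0. With the replicate block, DESeq2 called 32, 457 and 774 genes. Among members it then called 0 for VC+ against VC- (0.271% of all genes), 1 for VC- against D0 and 3 for VC+ against D0. For VC- against D0 this was Kcnn3, lower (DESeq2 adjusted p = 0.0498), 1.75% of members against 2.28% of all genes. For VC+ against D0, Kcnk16 and Kcnc4 were higher (DESeq2 adjusted p of 9.5e-05 and 0.00447), 3.51% of members against 3.60% of all genes. Kcnt1 was lower (DESeq2 adjusted p = 0.0127), 1.75% against 2.94%. The Kcnk16 call rests on replicate 2, with 375 reads in VC+ against 3 in replicate 1. Limma and edgeR with the block called 0. The D0 replicates share only a number with the others, since no D4 or D5 label ties them, and their replicate differences correlated at 0.730 with those of VC- and 0.688 with those of VC+. Between replicates, shares of all genes under other settings are not given here, so the counts do not compare members with other genes. There, DESeq2 called 23 members and the filter of at least 5 CPM left 7 (of 31 tested), against 15. Leaving out 1 library moved that count between 0 and 33, and that of all genes between 0 and 5049. The cause was not tested.

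At 99% confidence, 5 members kept both VC+ to VC- ratio intervals on 1 side of 1, against 7 at 95%. Those 7 were 12.3% of members, below the 17.6% of all genes, and the share of all genes at 99% is not given here. Over single members and settings, 896 values kept their direction and side of the threshold, 29 lost and 13 gained it, and 31 changed sign. No member passed a group comparison in the main fit, so every value that lost its side of the threshold belonged to the comparison of replicates. Apart from Kcnd3 (-0.00244 for VC+ against D0 in DESeq2), every change of sign came from leaving out 1 library. For VC+ against VC- the ranges of the log2 difference were Kcnab2 -0.76 to 0.20, Kcnd2 -0.75 to 1.83, Kcnd3 -0.13 to 0.13, Kcne5 -0.27 to 0.85, Kcnj14 -0.30 to 0.59, Kcnk10 -0.76 to 1.55, Kcnk2 -0.61 to 1.25, Kcnn2 -1.07 to 0.52 and Kcnn3 -0.24 to 0.48. For VC- against D0 the ranges of the log2 difference were Kcnd3 -0.12 to 0.15, Kcnj14 -0.25 to 0.33 and Kcnk2 -0.78 to 1.07. For VC+ against D0 the ranges of the log2 difference were Kcnab2 -0.16 to 1.34, Kcnd3 -0.12 to 0.15, Kcnj14 -0.25 to 0.63, Kcnk10 -1.80 to 0.51, Kcnk2 -0.47 to 1.39 and Kcnn2 -1.55 to 0.043. Where this left a group with 1 library, it was assumed to vary like the others. Depth limits members resting on 3 reads or fewer, mostly in replicate 1.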
